A study of Mus musculus with 6 samples.

Results

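The genes described here are 9 genes of cholinergic and monoamine neurons, chosen by name: the nicotinic receptor subunits Chrna4, Chrnb2 and Chrna3, the acetylcholine enzymes and carrier Ache, Chat and Slc18a3, and the monoamine genes Ddc, Th and Slc18a2. They were found on every array through the RefSeq accession of their probes, as 14 probes among 41174, and are 9 of 17178 genes with a symbol. RNA came from P19 cells, a mouse embryonal carcinoma cell line that forms neurons and glia when its aggregates are exposed to retinoic acid. AICD/P19 cells, which express the intracellular domain that is cut from the amyloid precursor protein, were compared with pCDNA/P19 cells, which carry the vector without an insert. Each line was sampled undifferentiated, after 4 days of aggregation in 0.5 µM all-trans retinoic acid (aggregated), and 2 days later on culture dishes (differentiated), on 1 array per line and state. All 6 samples are P19 cells carrying a vector, so no untransfected cells were compared, and the labels used here name neither the number of clones in a line nor the promoter that drives AICD.

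Acetylcholine is made by choline acetyltransferase, loaded into vesicles by the vesicular acetylcholine transporter and broken down by acetylcholinesterase. Nicotinic receptors are pentameric ion channels that acetylcholine opens; α4 and β2 subunits form the main high-affinity receptor of the brain, while α3 subunits are known from receptors of autonomic ganglia. Tyrosine hydroxylase makes L-DOPA and limits the rate of catecholamine synthesis, aromatic L-amino acid decarboxylase completes dopamine and serotonin, and the vesicular monoamine transporter stores them.

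Levels are normalized log2 signals, the log2 of a probe's processed brightness minus the 75th percentile of its array, so a probe at 0 is as bright as that percentile. Levels of different probes cannot be set against each other, and each gene is described across arrays only. Between 62.0% and 65.9% of spots on an array were well above background, 0 were saturated, and the 75th percentile of brightness was 529 to 862. Spots of the same probe on an array had a median SD of 0.0934 to 0.119 (log2), which measures spotting and scanning only; there is no spread between replicate cultures. The undifferentiated pair lay on slide 1 and the other 4 arrays on slide 2, so a change from undifferentiated cells cannot be told apart from a difference between slides. Because each sample is bulk RNA, fewer expressing cells and less RNA per cell cannot be told apart. In undifferentiated cells, markers of embryonal carcinoma were present (Pou5f1 at 6.48 in AICD cells and 6.37 in pCDNA cells). All 14 neuronal markers were well above background on the aggregated and differentiated arrays of both lines. Of these 14, 13 were already so on each undifferentiated array, so their detection alone does not set the states apart. Of the defining markers of cholinergic and monoamine neurons, Slc18a3 was well above background on 4 of 6 arrays, Slc18a2 on 3, Th on the 2 aggregated arrays and Chat on 2, and the choline transporter Slc5a7 and the dopamine transporter Slc6a3 did not reach the filter of 2 arrays.

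All 9 genes passed that filter, which 13380 genes passed, but only Chrna4, Chrnb2 and Ddc were well above background on all 6 arrays. Th passed only through the aggregated arrays and Chrna3 only through 2 AICD arrays, so that they had to differ between arrays; Th is therefore left out of the counts by state. Normexp background correction, used as an alternative, adds a constant to every signal and so makes the differences of dim probes smaller. The promoters shown are those of the 5 genes whose probe used in the fit read higher in aggregated than in undifferentiated AICD cells. Each is the 250 bases before the start in RefSeq's annotation of GRCm38.p6, read 5′ to 3′ on the gene's strand, with capitals marking matches on either strand to a GC box, a cyclic AMP response element, an E-box, a TATA box or a retinoid receptor half-site, whose letters are given after the sequences.
Chrna4, chr2:181039178-181039427, minus strand: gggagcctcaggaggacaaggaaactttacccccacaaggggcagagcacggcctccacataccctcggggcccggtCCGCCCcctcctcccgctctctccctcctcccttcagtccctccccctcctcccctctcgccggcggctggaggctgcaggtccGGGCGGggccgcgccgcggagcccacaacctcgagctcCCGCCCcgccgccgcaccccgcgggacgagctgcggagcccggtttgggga
Chrnb2, chr3:89764633-89764882, minus strand: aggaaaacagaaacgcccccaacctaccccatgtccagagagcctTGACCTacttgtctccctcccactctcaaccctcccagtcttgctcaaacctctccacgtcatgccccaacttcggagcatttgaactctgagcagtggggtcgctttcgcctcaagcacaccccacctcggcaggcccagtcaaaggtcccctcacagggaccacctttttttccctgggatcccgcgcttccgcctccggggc
Chrna3, chr9:55026563-55026812, minus strand: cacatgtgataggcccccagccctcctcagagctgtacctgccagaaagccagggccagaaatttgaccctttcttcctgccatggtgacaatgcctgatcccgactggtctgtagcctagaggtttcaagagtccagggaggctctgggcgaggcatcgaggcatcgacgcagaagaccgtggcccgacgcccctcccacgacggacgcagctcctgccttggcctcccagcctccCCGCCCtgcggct
Ache, chr5:137288004-137288253, plus strand: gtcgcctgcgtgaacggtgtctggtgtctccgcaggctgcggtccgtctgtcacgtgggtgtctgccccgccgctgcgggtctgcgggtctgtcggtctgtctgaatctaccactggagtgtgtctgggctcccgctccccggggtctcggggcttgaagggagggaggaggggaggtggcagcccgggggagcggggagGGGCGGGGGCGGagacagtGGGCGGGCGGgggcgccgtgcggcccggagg
Th, chr7:142899996-142900245, minus strand: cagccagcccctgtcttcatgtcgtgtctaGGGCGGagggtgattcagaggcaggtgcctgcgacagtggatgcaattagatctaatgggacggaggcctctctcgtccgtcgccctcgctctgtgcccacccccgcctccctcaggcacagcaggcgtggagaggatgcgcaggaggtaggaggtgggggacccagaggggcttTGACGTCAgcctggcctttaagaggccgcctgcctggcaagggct

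The Th promoter held the cyclic AMP response element TGACGTCA 45 bases before the start, a match present in 1.55% of 32851 RefSeq promoters of this length and in 1 of the 10 promoters of these genes (Ddc has 2). The GC box GGGCGG was found in 6 of the 10, against 32.7% of all promoters, with 4 in Ache (the pair nearest the start overlaps) and 3 in Chrna4. The half-site AGGTCA was found in 2 of the 10 (Chrnb2 and Ddc), against 14.0% of all promoters. The E-box CAGCTG was found in 2 (Chat and Slc18a2), against 13% of all promoters. The TATA box TATAAA was found in 1 (Ddc), against 12.4% of all promoters. In the Ddc promoter the TATA box and half-site matches overlap. A match describes letters in this window and is not a measured binding site.

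Among the receptor genes, Chrna4 and Chrnb2 rose in aggregated and in differentiated cells against undifferentiated cells. Chrna4, the α4 subunit, was at -2.20 in undifferentiated, 0.28 in aggregated and -0.27 in differentiated AICD cells. In pCDNA cells the same probe read -4.53, -1.76 and -0.18 in that order of states. The lowest level was therefore that of undifferentiated pCDNA cells, the highest that of aggregated AICD cells, and the 2 differentiated arrays read -0.27 and -0.18. From aggregated to differentiated cells it was lower in AICD cells and higher in pCDNA cells. Over both lines, Chrna4 was higher by 2.63 ± 0.67 in aggregated than in undifferentiated cells (log2 difference ± limma standard error, 2 arrays per state, adjusted p = 0.0451) and by 3.14 ± 0.67 in differentiated than in undifferentiated cells (adjusted p = 0.0207). The other Chrna4 probe was well above background on all 6 arrays and followed the same order in part, at -3.31, -1.44 and -2.41 in AICD cells and -4.23, -2.87 and -2.43 in pCDNA cells.

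Chrnb2, the β2 subunit that pairs with α4, had the largest change along the course of the 9 genes. Its levels were -5.46, -1.13 and 0.69 in undifferentiated, aggregated and differentiated AICD cells, and -4.51, -2.18 and 0.95 in pCDNA cells. The states did not overlap: each later state lay above the earlier one in both lines. The difference was 3.33 ± 0.53 for aggregated against undifferentiated cells (adjusted p = 0.0194) and 5.80 ± 0.53 for differentiated against undifferentiated cells (adjusted p = 0.00707). From aggregated to differentiated cells the difference was 2.48 ± 0.53 with an adjusted p of 0.0803, which did not pass 0.05; with normexp background correction it did (adjusted p = 0.0377), while the differences from undifferentiated cells were then 1.61 and 3.79, still called.

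Chrna3, the α3 subunit, was measured in AICD cells alone. It read -2.0 in aggregated and -4.09 in differentiated AICD cells, and it was not well above background in undifferentiated AICD cells or in any state of pCDNA cells. The level in aggregated AICD cells was at least 14.9-fold above that in aggregated pCDNA cells, and in differentiated AICD cells it was at least 3.72-fold above that in differentiated pCDNA cells. With normexp background correction the ratios were 4.25 in aggregated and 1.99 in differentiated cells, both below these bounds. These bounds set the bright array against the lowest signal well above background on the dim array, since the dim probe has no measured level there. The other Chrna3 probe was well above background in aggregated AICD cells only, at -3.39, at least 5.69-fold above aggregated pCDNA cells. No limma contrast of Chrna3 passed the test.

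**Figure D1:**
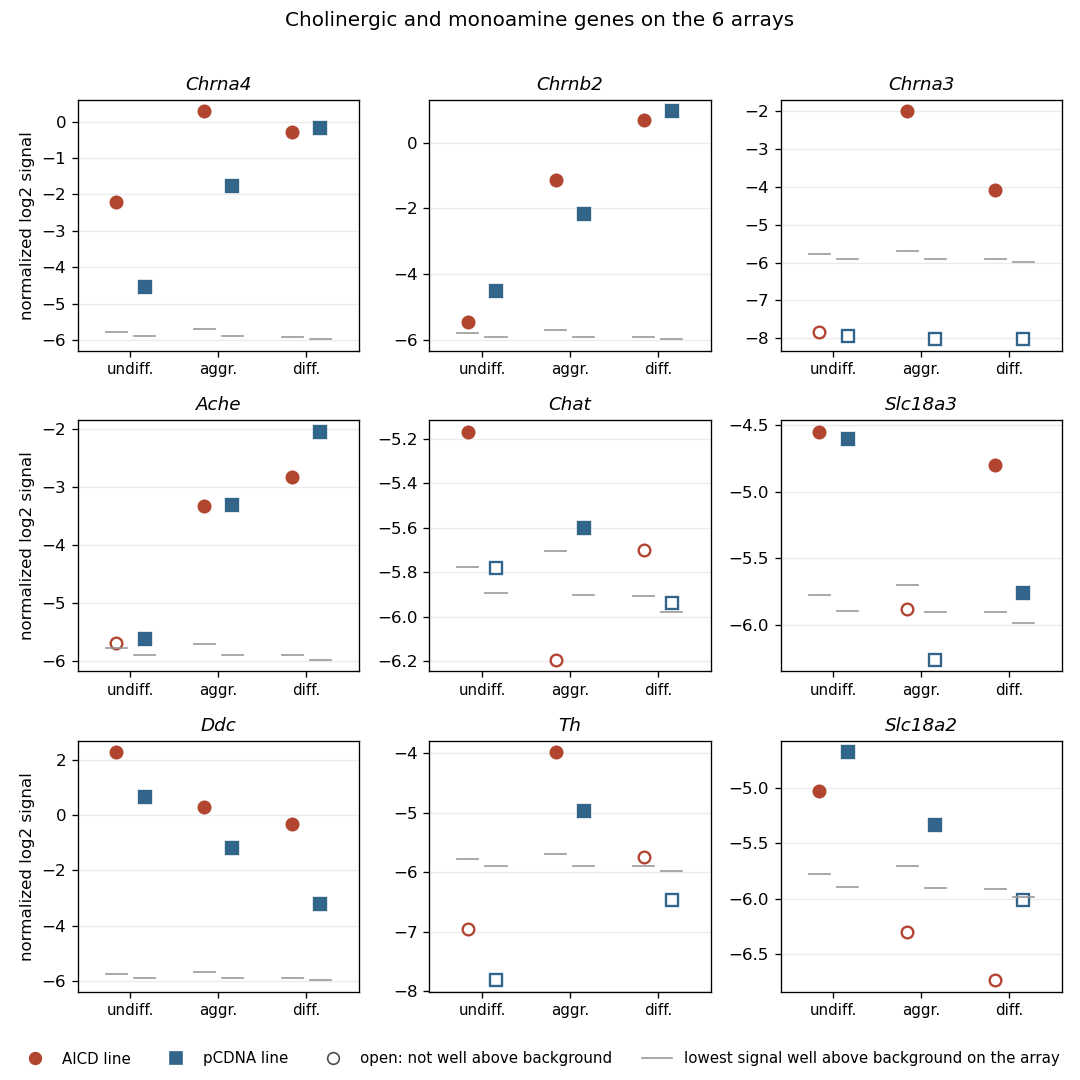
Normalized log2 signal (vertical axes, each gene with its own scale) of the 9 genes in undifferentiated, aggregated and differentiated cells, 1 array per point, AICD (circles) left of pCDNA (squares). Open symbols were not well above background and grey bars mark each array's lowest signal well above background; Chrna3 has filled symbols in AICD cells only, at -2.0 and -4.09, and Chrnb2 climbs in both lines.

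Ache, the esterase that ends acetylcholine signalling, rose with the receptor genes. It was not well above background in undifferentiated AICD cells and read -3.33 in aggregated and -2.83 in differentiated AICD cells. In pCDNA cells it read -5.62, -3.31 and -2.05 from undifferentiated to differentiated. The first of these lay near the lowest signal well above background on that array, -5.90. The aggregated arrays of the lines were 0.02 apart, and AICD minus pCDNA was -0.78 in differentiated cells. Ache passed the test for aggregated against undifferentiated cells (adjusted p = 0.0136) and for differentiated against undifferentiated cells (adjusted p = 0.00631), and the measured pCDNA arrays differed by 2.31 and 3.57 for these steps. With normexp background correction the differences over both lines were 0.65 and 1.09, still called.

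No rise of Chat or Slc18a3, the genes that make and load acetylcholine, passed the test. Chat was well above background only in undifferentiated AICD cells, at -5.17, and in aggregated pCDNA cells, at -5.60, both just above the lowest signals called so, and its other probe was on no array. No contrast of Chat passed the test (the smallest adjusted p was 0.35, for aggregated against undifferentiated cells). Slc18a3, whose gene neighbours Chat in the reference annotation, was -4.55 in undifferentiated and -4.80 in differentiated AICD cells, against -4.60 and -5.76 in pCDNA cells. In aggregated cells of both lines it was not well above background, and it was at least 2.34-fold lower there than in undifferentiated cells (adjusted p = 0.0236). With normexp background correction this call was lost (adjusted p = 0.0718), and the log2 differences were -0.30 in AICD and -0.62 in pCDNA cells. In differentiated cells it was again well above background in both lines, at least 1.87-fold above aggregated cells in AICD and 1.11-fold in pCDNA cells (adjusted p = 0.138 over both lines); with normexp correction the differences of that step were -0.00027 in AICD and -0.027 in pCDNA cells.

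Th, the rate-limiting enzyme of catecholamine synthesis, was measured in aggregated cells and its 10 spots allow the state to be seen spot by spot. All 10 spots were well above background in aggregated cells of both lines, 4 of 10 in differentiated AICD cells, and 0 in differentiated pCDNA cells and in undifferentiated cells of both lines. The aggregated level was -3.99 in AICD cells and -4.98 in pCDNA cells. As a description, aggregated cells were at least 2.56-fold above undifferentiated cells. With normexp background correction the log2 difference was 0.34 over both lines, 0.67 in AICD cells and 0.012 in pCDNA cells. The level in differentiated cells was at least 2.61-fold lower than in aggregated cells. With normexp correction this step was -0.73 in AICD cells and -0.38 in pCDNA cells. Because the filter kept Th through its aggregated arrays alone, no test is given for these values, and because the probe was not well above background in differentiated or undifferentiated cells, those states are not compared.

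Ddc, which acts after Th and also in serotonin synthesis, fell along the course by the probe used in the test. Its levels were 2.29, 0.30 and -0.30 in undifferentiated, aggregated and differentiated AICD cells, and 0.68, -1.20 and -3.22 in pCDNA cells. Undifferentiated cells were the brightest in each line, and each AICD array was above the pCDNA array of its state. The difference was -1.93 ± 0.42 for aggregated against undifferentiated cells (adjusted p = 0.0326) and -3.24 ± 0.42 for differentiated against undifferentiated cells (adjusted p = 0.00863). The other Ddc probe differed at the first step: it read -2.44, -2.15 and -2.91 in AICD cells and -4.63 and -4.00 in undifferentiated and aggregated pCDNA cells, and was not well above background in differentiated pCDNA cells. With the mean of both probes the first step was -0.74 (adjusted p = 0.166), while the fall to differentiated cells was still called (-2.04, adjusted p = 0.0138).

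Slc18a2, the vesicular monoamine transporter, fell by the probe used in the test. It was -5.03 in undifferentiated AICD cells and not well above background in the later states, against -4.68 in undifferentiated and -5.34 in aggregated pCDNA cells. Differentiated cells were at least 2.13-fold below undifferentiated cells (adjusted p = 0.00925). With normexp background correction the log2 differences were -0.41 in AICD and -0.75 in pCDNA cells, both smaller in size than this bound. Aggregated against undifferentiated cells passed the test too (adjusted p = 0.0328), a call lost with normexp background correction (adjusted p = 0.182). Its other probe was well above background in differentiated pCDNA cells only, where it was at least 1.22-fold above undifferentiated pCDNA cells, the opposite direction.

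Counted together without Th, 3 of the 8 genes rose (Ache, Chrna4 and Chrnb2) and 3 fell (Ddc, Slc18a2 and Slc18a3) in aggregated against undifferentiated cells, with a median of 0.96. Over all 13380 genes, 40.9% passed in that comparison, 14.8% higher and 26.1% lower, with a median of -0.27. The 8 genes of this count and the next include Chrna3, uncalled in both, which the filter kept through later AICD arrays alone. All 6 calls were lost when either aggregated array was left out, which left 0 genes called in all. The call of Chrna4 was also lost with quantile normalization (adjusted p = 0.0542) and with no filter on dim probes (adjusted p = 0.0659).

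For differentiated against undifferentiated cells, 3 of the 8 rose (Ache, Chrna4 and Chrnb2) and 2 fell (Ddc and Slc18a2), with a median of 0.75. Over all genes 60.7% passed, 20.3% higher and 40.4% lower, with a median of -0.42. Without the differentiated pCDNA array, 874 genes were called against 8128, and the calls of Chrna4 (adjusted p = 0.0509), Chrnb2 (0.0519) and Slc18a2 (0.0615) were lost. Without the undifferentiated pCDNA array the call of Chrna4 was lost (adjusted p = 0.0877). For differentiated against aggregated cells, which share a slide, 0 of the 9 genes passed by limma, against 0.0% of all genes; 4 of the 8 without Th and 4395 of all 13380 (32.8%) had an unadjusted p under 0.05. With normexp background correction 1373 genes passed.

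**Figure D2:**
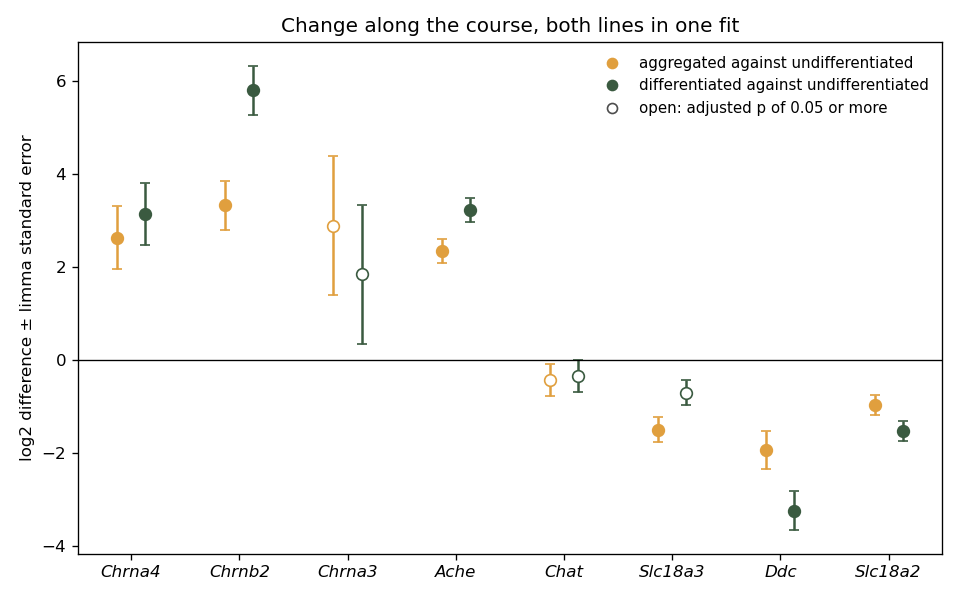
Log2 differences (points) with limma standard errors (bars) of 8 genes for aggregated and for differentiated against undifferentiated cells, both lines in the same fit, 2 arrays per state. Filled points have an adjusted p under 0.05, and Th, which the filter kept through its aggregated arrays alone, is left out; Chrnb2 reaches 5.80 in differentiated cells and Ddc reaches -3.24.

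The question of the study's design is how the AICD line differs from the pCDNA line. Over the 3 states, 0 of the 9 genes passed the test by limma, against 0.351% of all genes (47 genes; 0.209% higher and 0.142% lower in AICD cells); 3 of the 9 had an unadjusted p under 0.05, against 12.5% of all genes. These were Ddc (2.01 ± 0.34, adjusted p = 0.152), Th (0.86 ± 0.13, adjusted p = 0.124) and Slc18a2 (-0.68 ± 0.17, adjusted p = 0.269). The Th and Slc18a2 values include arrays on which the probe was not well above background. Chrna3, which was not called, is among the 9 although the filter kept it through AICD arrays alone. Ddc was higher in AICD cells in 3 of 3 states, by 1.61 in undifferentiated, 1.50 in aggregated and 2.92 in differentiated cells, and its other probe was also brighter in AICD cells in each state. Embryonal carcinoma markers lay at like levels in the lines before aggregation and higher in AICD cells afterwards, with a summed level (relative to the 75th percentile) of 146 in AICD and 147 in pCDNA undifferentiated cells, of 17.6 in AICD and 1.47 in pCDNA aggregates and of 20.2 in AICD and 1.77 in pCDNA differentiated cells; their part in the Ddc difference was not tested. Chrna4 had a difference of 1.43 ± 0.55 (adjusted p = 0.419), Slc18a3 of 0.46 (adjusted p = 0.487), Ache of -0.29 ± 0.21 (adjusted p = 0.638), Chat of 0.09 (adjusted p = 0.939) and Chrnb2 of -0.05 ± 0.43 (adjusted p = 0.978).

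Within a state there is 1 array per line and no test, so the differences are values, counted where both arrays measured the gene. In undifferentiated cells, 2 of 5 such genes were at least 2-fold higher in AICD cells and 0 lower, against 4.27% higher and 4.08% lower of 12554 genes. They were Chrna4, by 2.34, and Ddc. With normexp background correction the Chrna4 difference was 1.11, and the mean of its probes gave 1.63. In aggregated cells, 3 of 5 were higher and 0 lower, against 4.21% higher and 3.12% lower of 11989 genes. They were Chrna4, by 2.04, Ddc, and Chrnb2, by 1.05, which became 0.86 with normexp background correction, under 2-fold. Th was higher by 0.99 in aggregated AICD cells, and by 0.55 with normexp correction. In differentiated cells, 1 of 5 was higher (Ddc) and 0 lower, against 4.54% higher and 4.0% lower of 12280 genes. Slc18a3 was higher there by 0.96, and by 0.31 with normexp correction, while Chrna4 differed by -0.093 and Chrnb2 by -0.26.

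**Figure D3:**
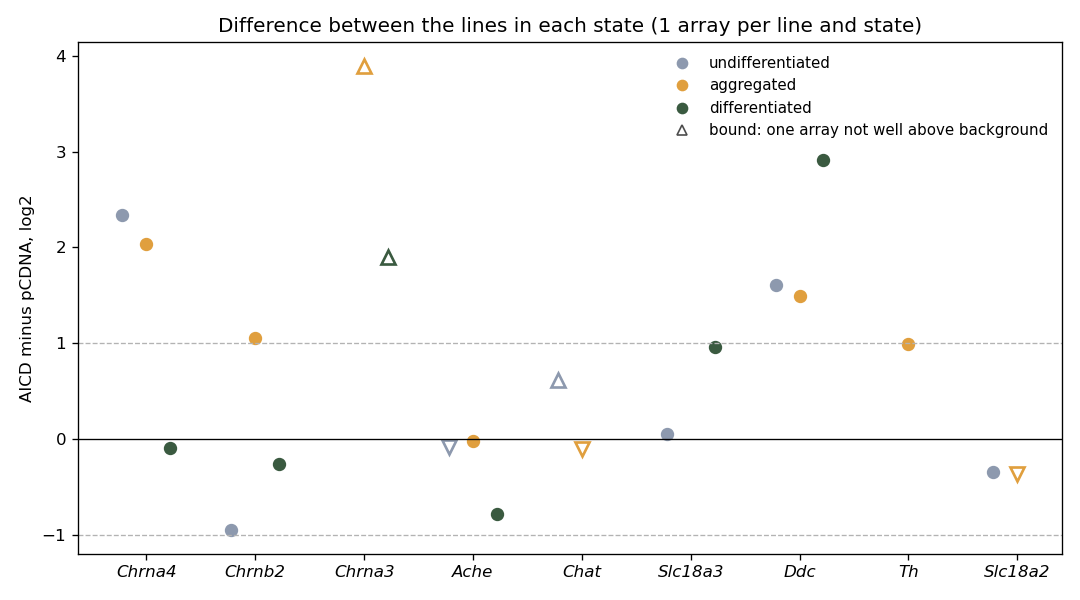
AICD minus pCDNA (log2, vertical axis) for each of the 9 genes in each state, 1 array per line and state. Filled circles were measured on both arrays, open triangles are bounds pointing the way the difference lies beyond them, dashed lines mark 2-fold, and pairs not well above background on either array are left out; Ddc lies above the upper line in all 3 states.

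Steps also differed between the lines, again as values without a test. From undifferentiated to aggregated cells Chrnb2 was higher by 4.33 in AICD cells and by 2.32 in pCDNA cells. From aggregated to differentiated cells it was higher by 1.82 in AICD cells and by 3.13 in pCDNA cells. Chrna4 was higher at the first step by 2.48 in AICD cells and 2.78 in pCDNA cells. By its other probe the AICD step was the larger (1.87 against 1.35), as it was with normexp background correction (2.11 against 1.42). At the next step the Chrna4 differences were -0.55 in AICD cells and 1.57 in pCDNA cells. Ddc differed by -1.99 and -0.60 at these steps in AICD cells, and by -1.88 and -2.02 in pCDNA cells. By its other probe the first step was 0.29 in AICD cells and 0.63 in pCDNA cells.

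The other genes of these pathways came from lists chosen by function. No list was tested as a whole, and counts are set against the shares of all genes, 14.8% higher and 26.1% lower in aggregated and 20.3% higher and 40.4% lower in differentiated against undifferentiated cells. Of 16 further nicotinic subunits and chaperones, 11 were tested; 2 rose (Chrna5 and Chrnb4) and 2 fell (Chrna10 and Lynx1) in aggregated against undifferentiated cells. In differentiated against undifferentiated cells 0 rose and 4 fell (Chrna10, Chrnd, Chrne and Lynx1). In aggregated cells these shares of 11 genes lie near those of all genes, and Chrnb4 passed the filter through its aggregated arrays alone, so that its call is no result. Chrna5 and Chrnb4 lie on either side of Chrna3 in the reference annotation and encode the α5 and β4 subunits. Chrna5 was -3.07, -0.55 and -1.36 in undifferentiated, aggregated and differentiated AICD cells, and -3.65, -2.44 and -3.84 in pCDNA cells, highest in aggregated cells of each line and higher in AICD cells by 0.58, 1.89 and 2.47. Its call for aggregated cells (adjusted p = 0.0498) was lost under most alternatives, including quantile normalization (adjusted p = 0.0635). Chrnb4 was well above background in aggregated cells only, at -3.04 in AICD cells and -3.21 in pCDNA cells, 0.17 apart between the lines.

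Of the monoamine synthesis and cofactor genes, 8 of 10 fell by the differentiated state, where 40.4% of all genes did. Of 11 listed, 10 were tested, and 0 rose and 3 fell (Dbh, Hdc and Pnmt) in aggregated against undifferentiated cells; 0 rose and 8 fell in differentiated against undifferentiated cells, with a median of -1.25 against -0.42 for all genes. Among these, Spr, which completes the cofactor of Th, differed by -1.79 (adjusted p = 0.00993) and Dbh, which makes noradrenaline, by -1.18 (adjusted p = 0.0084). Gch1, the first enzyme of that cofactor's synthesis, was -1.41, -3.64 and -3.31 along the course in AICD cells and 1.66, -4.36 and -4.46 in pCDNA cells. Hdc, which makes histamine, was measured in all 3 states of AICD cells, at -3.30, -4.34 and -4.12, and in pCDNA cells only undifferentiated, at -5.43; the line difference was 3.14 with an adjusted p of 0.0861. Of 7 transport and breakdown genes, 5 were tested and 2 fell (Slc18a1 and Maoa) in both comparisons with undifferentiated cells. Slc18a1, the other vesicular monoamine transporter, differed by -2.16 in aggregated cells (adjusted p = 0.0119), and Maoa, which oxidizes monoamines, by -1.99 in differentiated cells (adjusted p = 0.00984).

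Receptors moved in both directions. Of 17 monoamine receptors, 11 were tested; 1 rose (Adra2a, 1.11, adjusted p = 0.0358) and 2 fell (Htr2c and Htr7) in aggregated cells, and 2 rose and 4 fell in differentiated cells. These counts lie near the shares of all genes (14.8% higher and 26.1% lower in aggregated, 20.3% and 40.4% in differentiated cells), and Htr2c and Htr2b passed the filter through undifferentiated arrays alone. Of 5 muscarinic receptors 2 were tested: Chrm4 was higher in differentiated than in undifferentiated cells by 1.36 (adjusted p = 0.00773), and Chrm1 fell in aggregated cells (adjusted p = 0.0233). Of 8 acetylcholine supply and removal genes 5 were tested, and Chkb alone passed in a single comparison (0.61 in differentiated against undifferentiated cells, adjusted p = 0.0339).

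Transcription factors of these neuron types were counted in the same way. Of 13 cholinergic and motor neuron factors 12 were tested; 4 rose (Gbx1, Gbx2, Isl1 and Lhx1) and 0 fell in aggregated cells, and 6 rose and 0 fell in differentiated cells, against 14.8% higher and 26.1% lower, and 20.3% higher and 40.4% lower, of all genes. Isl1 passed the filter through later arrays alone, so that a call of its rise from undifferentiated cells is no result. Lhx1 was higher by 3.82 in aggregated cells (adjusted p = 0.0088). Isl1, which specifies motor neurons and acts with Lhx3, was not well above background in undifferentiated cells, read -3.60 in aggregated and -3.07 in differentiated AICD cells, and read -5.04 in aggregated pCDNA cells only. Its call in aggregated cells was lost with normexp background correction (adjusted p = 0.305) and without the aggregated AICD array (0.142), the aggregated pCDNA array (0.138) or the undifferentiated AICD array (0.0534). In differentiated cells it was at least 6.83-fold higher in AICD than in pCDNA cells. Nkx6-1, a ventral progenitor factor, was at 2.36 in differentiated AICD cells and -2.82 in differentiated pCDNA cells.

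Of 18 monoamine neuron factors 16 were tested; 3 rose and 5 fell in aggregated cells, and 7 rose and 4 fell in differentiated cells, against the same shares of all genes. Nr4a2, needed for dopamine neurons, was higher in aggregated cells by 1.02 (adjusted p = 0.0309), while Pitx3, another dopamine neuron factor, differed by -2.16 (adjusted p = 0.0109). Gata2, a factor of serotonin neurons, was the only gene of these pathway lists called between the lines: it was -0.32, -0.57 and 0.56 along the course in AICD cells and -3.07, -2.95 and -1.81 in pCDNA cells, a difference of 2.50 (adjusted p = 0.0326). That call was lost when any array was left out (adjusted p between 0.0511 and 0.227). Gata3 was higher in AICD cells by 3.97, 2.58 and 5.12 in the 3 states, with an adjusted p of 0.108.

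**Figure D4:**
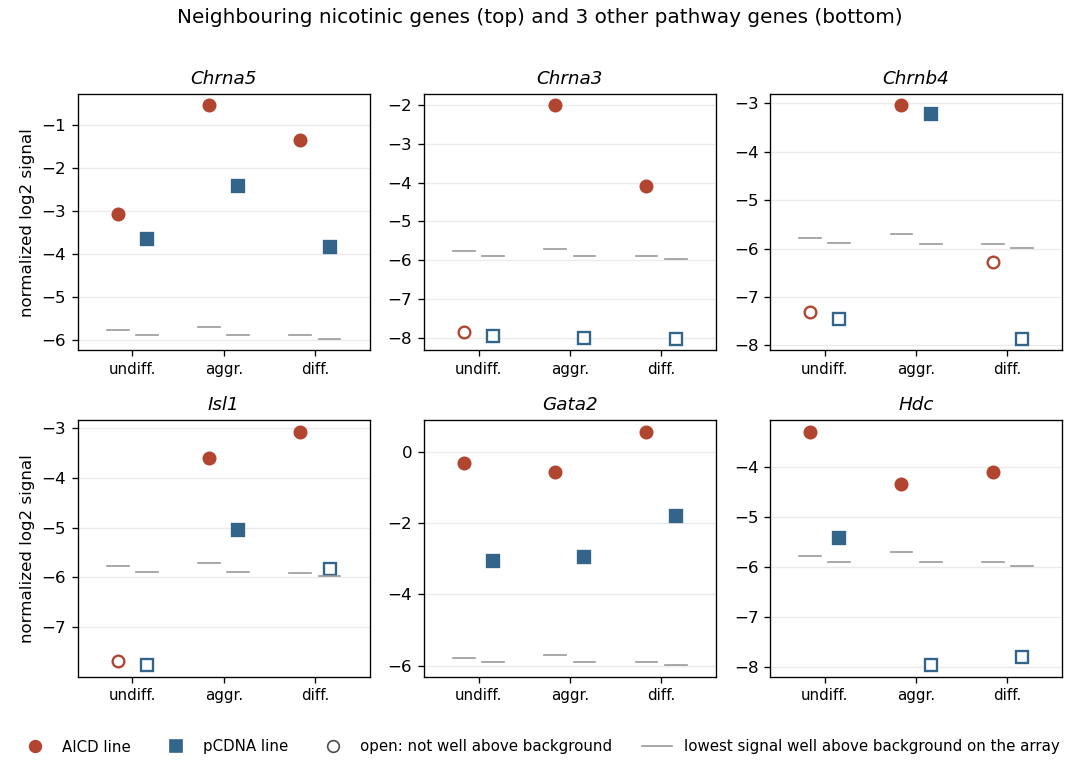
Normalized log2 signal of the neighbouring genes Chrna5, Chrna3 and Chrnb4 and of Isl1, Gata2 and Hdc by state, AICD (circles) left of pCDNA (squares), 1 array per point, each panel with its own scale. Open symbols were not well above background; Chrnb4 is measured in aggregated cells of both lines, at -3.04 and -3.21, and Hdc in pCDNA cells only before aggregation.

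Markers of other cell types moved with these comparisons. Their counts stand against 14.8% higher and 26.1% lower of all genes in aggregated against undifferentiated cells. For differentiated against undifferentiated cells these shares were 20.3% and 40.4%. The summed level of the 14 neuronal markers, relative to the 75th percentile, was 101, 155 and 225 in undifferentiated, aggregated and differentiated AICD cells and 106, 109 and 277 in pCDNA cells; 7 of the 14 rose and 1 fell in aggregated cells, and 12 rose and 1 fell in differentiated cells. Astroglial markers (8 of 8 on the array) summed to 19.1, 41.9 and 61.2 in AICD cells and 16.3, 42.5 and 70.1 in pCDNA cells. The astrocyte markers Gfap and Aqp4 did not reach the filter and are not in these sums. Of the 6 astroglial markers tested, 2 rose and 0 fell in aggregated cells, and 3 rose and 2 fell in differentiated cells. Of the embryonal carcinoma markers 9 of 10 were on the array, and 6 of 8 tested fell in each later state. Mesenchyme markers (11 of 11) summed to 2.32, 1.47 and 0.85 in AICD cells and 4.45, 8.16 and 33.6 in pCDNA cells, and neural crest markers (7 of 8 on the array) to 2.96, 5.86 and 11.9 in AICD cells and 2.41, 6.25 and 16.6 in pCDNA cells. Of the skeletal muscle factors, Myod1, Myog and Myf5 did not reach the filter, and muscle markers summed to 4.17, 0.92 and 0.68 in AICD cells and 2.64, 0.63 and 1.04 in pCDNA cells. The part of these cell types in the values of the 9 genes was not tested.

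Genes with the most similar pattern over the 6 arrays were named by Pearson correlation, as a description over 6 points that share states and slides. Chrna3 was most like Nr2e1 (r = 0.965), Emc9 and Sim1, and Chrna4 most like Gtf2b (0.991), Rps6kb2 and Mtch1. Chrnb2 was most like Tspyl4 (0.998), Septin3 and Stat2, and Ache most like Tcaf1 (0.999), Rnft2 and Cyth2. Ddc was most like Qrsl1 (0.997), Actn2 and St3gal4, Th most like Wdr54 (0.996), Thap3 and Rbsn, and Slc18a2 most like Gmpr2 (0.994), Cd38 and Kpna3. Slc18a3 was most like Slitrk4 (0.985), Ranbp17 and Hapln4, and Chat most like Il2 (0.992), Uggt1 and Zpbp. The named genes had the highest correlations among 11308 to 13162 candidates for each gene. For dim genes the correlations include signals not well above background: Chat and Zpbp were well above background on 2 of the 6 arrays and Il2 on 3.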

How the data were processed

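Total RNA of 6 P19 samples was measured on 6 Agilent single-colour (Cy3) arrays. Per the file headers, the authors used Agilent Feature Extraction 10.1.1.1 for image reading. The processed signal is, per the file headers, an intensity after background subtraction, not scaled between arrays. The authors' deposited value for each probe is a score. Compared with the scanner signals, it equals the deviation in log2 from the probe's median (scaled to the 75th percentile) where positive and the reciprocal of its size where negative, for 99.4% to 99.7% of listed values within 0.01. Its sign cannot be read without the scanner output, 23271 of 41252 rows are blank throughout, column medians were 0.967 to 1.23, and it served only as an alternative for 4 line differences within a state (Chrna4 and Chrnb2 in undifferentiated, Th in aggregated and Chrnb2 in differentiated cells). The array header names genome build mm9; probes were named through RefSeq accessions (24844 of 41174 had a symbol), and array results carry no coordinates.

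Flagged outlier spots were dropped and spots of a probe averaged. A probe counted as well above background when most of its spots were called so, and was kept with at least 2 of 6 arrays. A gene was represented by its probe with the highest mean. limma 3.58.1 in R 4.3.3 (with data.table, version 1.17.8) was fitted with terms for state and line, with 2 residual degrees of freedom and a prior worth 2.04, two-sided, with Benjamini-Hochberg adjustment over 13380 genes at 0.05. Since no line and state has a replicate array, the spread in the test is how the line difference varies between states, and nothing in the labels says that samples are separate cultures. The fit was tested on simulated data. A fold against a dim array is a lower bound, against the higher of the dim probe's own signal and the lowest signal well above background. Alternatives were normexp background correction (offset 50, on median signals, because the files used here have no mean signal column), quantile normalization, other filters, the mean of a gene's probes, each array left out, and slide 2 alone.

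All 9 genes are described with every probe. In the other pathway lists, genes past adjusted p 0.05 (the 6 largest changes where more passed) and up to 4 with the largest differences could be named, and the 3 most correlated genes were named for each of the 9. The genes, lists and tests were chosen with earlier results of these data known.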

Additional observations from a re-analysis of the deposited data

Results flagged for a closer look

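The AICD minus pCDNA difference of Chrna4 was 2.34 in undifferentiated and 2.04 in aggregated cells, against -0.093 in differentiated cells. Its other probe gave 0.92, 1.43 and 0.022 in that order of states, with no change of sign. The difference between states was not tested, because each state has 1 array per line. For the same gene, differentiated minus aggregated was -0.55 in AICD cells and 1.57 in pCDNA cells, opposite directions that were not tested either. For Chrnb2, AICD minus pCDNA was -0.95 in undifferentiated, 1.05 in aggregated and -0.26 in differentiated cells; this change of sign was not tested.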

How the results depend on the processing

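Line and state are terms of the fit, so the states were compared paired by line. No pairing by replicate was possible, because the labels give no replicate numbers. A slide block for aggregated against undifferentiated cells was not run, since no slide holds both states, and the authors' values could not give counts because of their blanks. Of the 174 values of the 9 genes under another processing or slide setting, 158 kept their direction and side of the threshold, 6 lost a call, 2 gained a call and 8 changed sign; of 216 with an array left out, 173, 29, 1 and 13 did so. Both totals include the values of Th, and those of the 2 comparisons in which 0 of the 9 genes were called (differentiated against aggregated cells, and the lines). The latter had no call to lose. Quantile normalization moved the median of all genes from -0.27 to -0.12 for aggregated and from -0.42 to -0.24 for differentiated against undifferentiated cells. The causes were not tested. The dim probes limit Chat, Chrna3, Slc18a3, Slc18a2 and Th, and in undifferentiated cells Ache.

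Counts of called genes moved as follows. Differentiated against aggregated cells had 0, 1373 with normexp correction and 693 with the filter on all 6 arrays, and 0 to 0 with an array left out. The lines differed in 47 genes, in 0 without a filter, in 84 on slide 2 alone, and in 0 to 84 with an array left out. Aggregated against undifferentiated cells had 5479, and 0 to 3990 with an array left out (0 without either aggregated array, 1022 without undifferentiated pCDNA, 3508 without undifferentiated AICD cells). Differentiated against undifferentiated cells had 8128, and 874 to 6550. Genes 2-fold apart between the lines numbered 584, 493 and 666 under normexp correction in undifferentiated, aggregated and differentiated cells, against 1048, 879 and 1048, and 826 against 1337 for differentiated minus aggregated AICD cells.

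Changes of sign were these. With normexp correction, Chat (-0.12) and Slc18a3 (-0.014) for differentiated against aggregated cells, Chrna3 (-0.047), Th (-0.21) and the transcription factor Hand2 (-0.11) for differentiated against undifferentiated cells, and Chrnb2 between lines (0.13). With quantile normalization, Chat for differentiated against aggregated cells (-0.13). On slide 2 alone, or without either undifferentiated array, Chat (-0.18) and Chrnb2 (0.40) between lines; without either differentiated array, Chrnb2 between lines (0.05). Without aggregated AICD cells, Chat for aggregated against undifferentiated (0.083) and, for differentiated against aggregated cells, Chat (-0.43) and Chrna3 (0.95). Without differentiated AICD cells, Chat (-0.035), and without differentiated pCDNA cells, Chrna4 (-0.63), for differentiated against aggregated cells. Without undifferentiated AICD cells, Chat (0.049) and Chrna3 (-0.60) for differentiated against undifferentiated cells. With each array left out in turn, these results ranged for Chat from -0.93 to 0.083 (aggregated against undifferentiated), -0.43 to 0.59 (differentiated against aggregated), -0.74 to 0.049 (differentiated against undifferentiated) and -0.18 to 0.42 (lines); for Chrna3 from -3.04 to 0.95 (differentiated against aggregated) and -0.60 to 4.28 (differentiated against undifferentiated); for Chrna4 from -0.63 to 1.65 (differentiated against aggregated); and for Chrnb2 from -0.61 to 0.40 (lines).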
